A study of Mus musculus with 6 samples.

Results

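The type I interferon-stimulated genes were examined in the liver of mice lacking KRAP. They are 43 genes of the type I interferon response, chosen by name as interferon-stimulated genes together with the sensors, receptor chains and transcription factors of the pathway. Of these, 40 had at least 1 probe set annotated to them alone, among 18193 such genes on the array, and they were measured by 70 of 45037 probe sets. Isg15, Ifi44 and Oas1g had none and were not analysed here. The only probe set of Isg15 is also annotated to Gm9706, and a probe set of Trim30a that is shared with Trim30d was left out. Mx2, Oas1b and Oas3 were measured but lay below the limit set for the test, a mean of 0.5 of the array median, so 37 members were tested.

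Liver RNA came from 3 KRAP-/- mice and 3 wild-type littermates, 1 array per mouse, and each KRAP-/- mouse was set against its littermate (pairs 1 to 3). All were 32 weeks old and fed normal chow. In the KRAP-/- mice exons 11 to 16 of KRAP were replaced by a neomycin resistance cassette in every cell of the body. Mice of a mixed background were backcrossed 6 times to C57BL6/J, so sequence of the other founder strain can remain near the gene. Which members lie near KRAP was not examined. For any that do, effects of such sequence and of the loss of KRAP cannot be told apart. The sex of these 6 mice is not given in the labels.

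Type I interferons bind a receptor made of Ifnar1 and Ifnar2, which activates the kinases Jak1 and Tyk2. These phosphorylate Stat2, which joins Irf9 in a complex that binds the interferon-stimulated response element in the promoters of antiviral genes. The products include the sensors of viral RNA that induce more interferon, the factor Irf7 that amplifies it, and effectors that block entry, translation or release of viruses. Uninfected tissue carries a low tonic level of the same genes, and in liver both hepatocytes and the resident macrophages, the Kupffer cells, express them.

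The response element was searched as GAAANNGAAA on either strand, which reads TTTCNNTTTC on the opposite strand, in RefSeq promoters (GRCm38.p6) that run from 250 bases before the annotated start of transcription to 50 bases after it. Promoters were given for 32 of the 43 members, and 15 of these 32 genes (46.9%) held at least 1 match. Of all 27025 genes with a promoter in the same table, 3.99% did, and of all 32851 promoters 3.44%. Adjacent copies that share GAAA were counted as separate matches, and 8 members had 2 or more in a single promoter. The GAS letters TTCNNNGAA, the site bound by STAT dimers, occurred in 9 of the 32 members (28.1%) and in 9.55% of all genes. The matches of both motifs shared bases in Bst2 and Ifitm3.

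The whole promoters of Ifit1 and Ifit3 are shown because these genes had the largest differences between genotypes. Capitals mark the response element, 5′ to 3′ on the strand of the gene.
Ifit1 chr19:34640639-34640938 (+ strand): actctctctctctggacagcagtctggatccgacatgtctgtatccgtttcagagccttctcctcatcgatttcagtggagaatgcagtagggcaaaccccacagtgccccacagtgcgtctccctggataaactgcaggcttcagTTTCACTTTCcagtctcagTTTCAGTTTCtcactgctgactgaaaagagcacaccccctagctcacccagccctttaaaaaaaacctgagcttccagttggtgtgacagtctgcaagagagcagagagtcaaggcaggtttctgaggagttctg
Ifit3 chr19:34583279-34583578 (+ strand): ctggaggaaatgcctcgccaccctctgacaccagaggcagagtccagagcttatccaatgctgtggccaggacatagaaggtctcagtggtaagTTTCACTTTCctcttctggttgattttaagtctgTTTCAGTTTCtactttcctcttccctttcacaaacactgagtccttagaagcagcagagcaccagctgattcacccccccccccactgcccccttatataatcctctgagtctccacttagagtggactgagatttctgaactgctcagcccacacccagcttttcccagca

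Both hold 2 copies. In Ifit1 they begin 104 and 85 bases upstream of the start, and in Ifit3 156 and 122 bases upstream, all in the reverse orientation. The stretches around the first match in 5 other members that were lower in KRAP-/- liver, and in Oas1a, which did not pass, are shown to compare the element and its position, with the same capitals.
Rsad2 chr12:26456543-26456592 (- strand): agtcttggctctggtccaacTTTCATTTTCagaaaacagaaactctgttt
Bst2 chr8:71537573-71537622 (- strand): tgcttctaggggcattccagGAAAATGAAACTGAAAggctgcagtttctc
Ifitm3 chr7:141010713-141010762 (- strand): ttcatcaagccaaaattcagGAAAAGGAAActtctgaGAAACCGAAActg
Ddx58 chr4:40239794-40239843 (- strand): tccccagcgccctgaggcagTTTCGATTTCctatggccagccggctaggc
Ifih1 chr2:62646206-62646243 (- strand): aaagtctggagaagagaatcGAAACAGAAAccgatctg
Oas1a chr5:120907516-120907565 (- strand): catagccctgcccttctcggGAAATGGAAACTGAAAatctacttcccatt

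In Rsad2 and Bst2 the first match lies 120 and 130 bases upstream. In Ifitm3 and Ddx58 it begins 2 bases and in Ifih1 32 bases downstream of the start base, so position differed widely between members. The stretch of Oas1a is identical to that of Oas1g, its neighbour of near-identical sequence, for which the array had no probe set of its own. Oas1a, Oas1b and Oas1g are of a multigene family, and a probe set named for a single such gene may bind others.

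**Figure D1:**
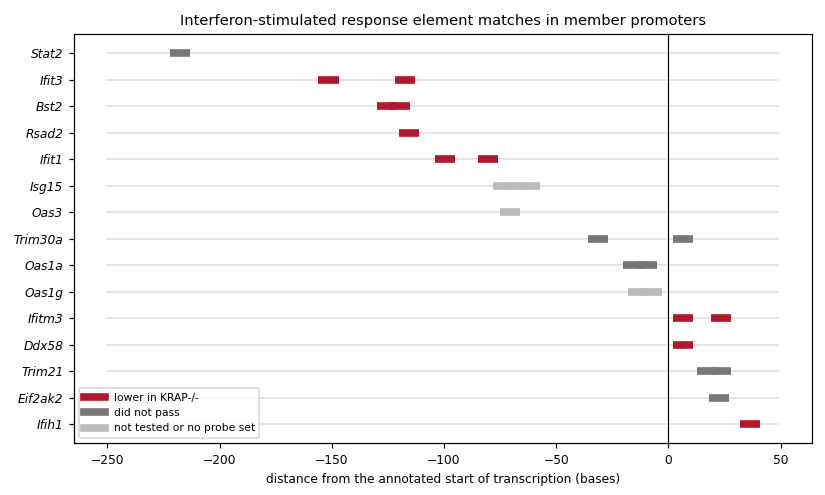
Matches of the interferon-stimulated response element in member promoters, by distance in bases from the annotated start of transcription (x axis) and gene (rows). Each bar is a match of 10 bases on either strand and each thin line the 300 bases searched, and matches of Trim30a come from 2 promoters. Red genes were lower in KRAP-/- liver, dark grey genes did not pass the test, and pale grey genes were not tested or had no probe set of their own. Matches range from 222 bases upstream in Stat2 to 32 bases downstream in Ifih1.

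Of the members called lower by the test described below, 7 of the 13 with a promoter held the element, against 5 of the 15 tested members with a promoter that did not pass. Irf7, Oasl1, Oasl2, Samd9l, Uba7 and Xaf1 were called lower without these letters in the 300 bases. The GAS letters were found in 2 and 7 genes of the same groups. These counts are descriptions and were not tested.

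Levels are signals divided by the median of their array, and a gene is represented by its brightest probe set unless stated. They depend on the probes, so they are compared between mice and not between genes. The array medians were 20.2 to 23.4 in KRAP-/- and 19.1 to 22.6 in wild-type liver, and the 3′ over 5′ ratio of the beta-actin control probe sets, which rises as RNA degrades, was 2.28 to 2.32 and 2.01 to 2.65. The liver label was borne out by hepatocyte markers such as Alb and Apoa1, and none of the 7 tested hepatocyte markers passed the test (median log2 difference −0.01). With 1 array per mouse, the p-values rest on the spread between these 6 mice that remains after the pair term. The fit also draws that spread toward the spread of other probe sets of similar intensity.

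Of the 37 members tested, 15 were lower in KRAP-/- liver, 0 were higher and 22 did not pass (limma with a term for each littermate pair, adjusted p under 0.05). Over all 13217 genes tested, 1.31% were called lower and 0.333% higher. At an unadjusted p under 0.05, 28 members were lower and 0 higher. Of all 28531 probe sets tested, 2653 were lower and 1591 higher at that limit. The median log2 difference of the members (KRAP-/- minus wild type) was −0.59, against −0.08 over all genes tested, and 36 of 37 members were below 0, against 62.1% of all genes. The 15 calls ranged from −1.27 in Ifit3 to −0.46 in Ifitm3, that is, 2.42-fold to 1.38-fold higher levels in wild-type liver, and 3 of them reached 2-fold. No member passed when the fit used no intensity trend or no limit on dim probe sets, so the calls rest on these choices of the fit. There 26 and 25 members were lower at an unadjusted p under 0.05, against 1794 of 28531 and 2937 of 45037 probe sets.

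In 27 of 37 members every KRAP-/- value lay below every wild-type value, and in 0 every value lay above. Over all genes tested 15.2% did not overlap in the lower and 5.57% in the higher direction. The ratio of KRAP-/- to wild-type littermate had a median over the members of 0.618 in pair 1, 0.654 in pair 2 and 0.670 in pair 3, and in each pair 35 of 37 ratios were below 1. The geometric mean level of the tested members was 7.69, 6.66 and 6.59 in KRAP-/- mice 1 to 3 and 11.996, 9.93 and 10.1 in wild-type mice 1 to 3. Pair 1 therefore had the highest levels in both genotypes, and wild-type mouse 1 had the highest value of all 6 for 29 members. Without pair 1, 13 members were called lower, with 15 without pair 2 and 14 without pair 3. The array of wild-type mouse 1 also had the highest beta-actin ratio. Without its pair the median log2 difference of the members was −0.60. Of the 15 calls 4 were then lost, those of Ddx58, Ifih1, Oasl2 and Uba7, and 2 other members passed. The part of RNA quality in the result was not tested.

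**Figure D2:**
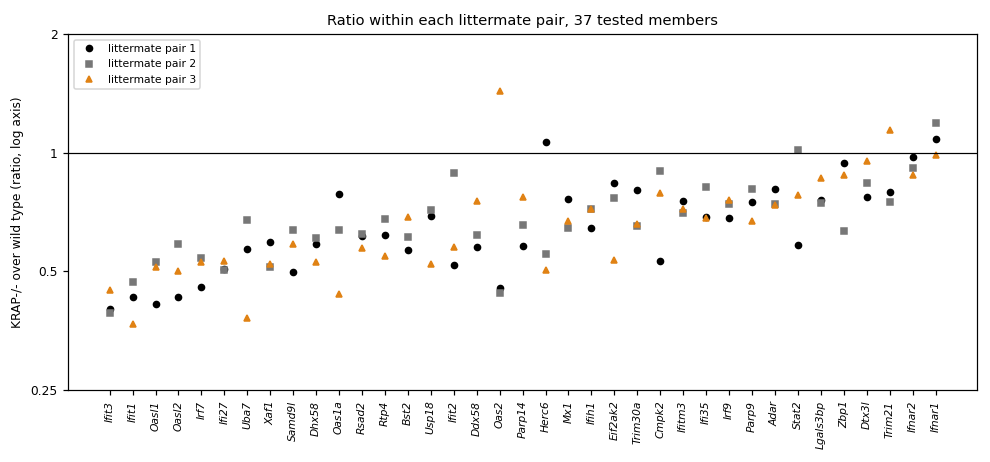
Ratio of KRAP-/- to wild-type level within each littermate pair (y axis, log scale) for the 37 tested members, ordered by their log2 difference in the fit (x axis). Circles, squares and triangles are pairs 1, 2 and 3, and the line marks equal levels. The points of Ifit3 and Ifit1 lie between 0.368 and 0.469, and in each pair 35 of 37 points lie below 1.

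The filter that the study's methods name, a ratio of at most 1/1.5 in all 3 pairs, was met by 11 member genes and 12 member probe sets, and a ratio of at least 1.5 by 0. Over all 18193 genes 4.94% met it in the lower and 3.69% in the higher direction. Dhx58 and Herc6 met it without passing limma, Herc6 at a dimmer probe set.

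The receptor chains did not pass. Ifnar1 read 8.77, 8.37 and 7.88 in KRAP-/- mice 1 to 3 and 8.06, 7.02 and 7.96 in their littermates, a log2 difference of 0.12 ± 0.12 (SE, adjusted p = 0.697). Ifnar2 read 40.4, 41.4 and 39.1 against 41.2, 45.1 and 44.5, a log2 difference of −0.11 ± 0.09 (SE, adjusted p = 0.584). At these probe sets the groups overlapped for both chains, and Ifnar1 was the only tested member above 0. Its dimmer probe set had a log2 difference of 0.998 (adjusted p = 0.129), so the 2 probe sets of this gene differ in size. There all KRAP-/- values (2.53 to 3.78) lay above all wild-type values (0.738 to 2.31). With the mean of its probe sets the fit gave Ifnar1 0.56 (adjusted p = 0.184).

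Among the transcription factors Irf7, which drives the genes of interferon alpha, was lower. It read 7.38, 8.45 and 7.78 in KRAP-/- mice 1 to 3 and 16.2, 15.6 and 14.7 in wild-type mice 1 to 3. The groups were far apart, with a log2 difference of −0.98 ± 0.11 (SE, adjusted p = 0.00486), a 1.97-fold difference. The partners of the STAT complex did not pass: Irf9, which binds the response element, had a log2 difference of −0.46 (adjusted p = 0.102) with groups that did not overlap, and Stat2 one of −0.37 (adjusted p = 0.376) with groups that did.

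Of the 4 sensors, both helicases that start signalling from viral RNA were lower. Ddx58, known as RIG-I, read 10.1, 8.77 and 11.1 in KRAP-/- mice 1 to 3 and 17.6, 14.2 and 14.7 in their littermates, a log2 difference of −0.63 ± 0.12 (SE, adjusted p = 0.0371). Ifih1, known as MDA5 and a sensor of long double-stranded RNA, read 18.3, 16.6 and 16.2 against 28.3, 23.02 and 22.4, a log2 difference of −0.53 ± 0.10 (SE, adjusted p = 0.0362). Neither overlapped between genotypes. Both calls were lost without pair 1, with values as deposited and with quantile normalization. That of Ddx58 was also lost without pair 2 and with the mean of its probe sets, and that of Ifih1 without the pair as a block. Dhx58, or LGP2, the helicase that regulates both, had a log2 difference of −0.80 (adjusted p = 0.0638), and its ratios of 0.587, 0.607 and 0.529 were close to each other although its levels overlapped between pairs. Zbp1, a sensor of left-handed nucleic acid, had −0.31 (adjusted p = 0.454).

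The largest differences among the members were those of the IFIT proteins, which bind foreign RNA and block its translation. Ifit1, which recognises caps that lack the host's methylation, read 4.49, 3.75 and 3.41 in KRAP-/- mice 1 to 3 and 10.4, 8.004 and 9.27 in their littermates, a log2 difference of −1.25 ± 0.14 (SE, adjusted p = 0.00392). Ifit3 read 4.03, 2.55 and 3.23 against 10.02, 6.52 and 7.20, a log2 difference of −1.27 ± 0.14 (SE, adjusted p = 0.00392). In both genes the highest KRAP-/- mouse was well below the lowest wild-type mouse. Their neighbour on chromosome 19, Ifit2, was near the dim end (means 1.32 and 2.03), overlapped, and had −0.64 (adjusted p = 0.307). Eif2ak2, the kinase PKR that halts translation on double-stranded RNA, had −0.51 (adjusted p = 0.254) and Adar, which edits adenosine in such RNA, −0.39 (adjusted p = 0.159), both with groups that did not overlap.

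In the oligoadenylate synthetase family, whose active members make the messenger that switches on RNase L, both synthetase-like genes were lower. Oasl1, described as a brake on the translation of Irf7, read 4.10, 3.61 and 3.90 in KRAP-/- mice 1 to 3 and 9.92, 6.84 and 7.59 in their littermates, a log2 difference of −1.05 ± 0.14 (SE, adjusted p = 0.00982). Oasl2 read 1.63, 2.20 and 1.75 against 3.78, 3.75 and 3.51, a log2 difference of −0.99 ± 0.19 (SE, adjusted p = 0.0436). The wild-type values of Oasl2 lay close together and above all KRAP-/- values, but its call was lost without pair 1 and without pair 3. Oas1a had −0.73 (adjusted p = 0.0898) and did not overlap. Oas2 had −0.60 (adjusted p = 0.482), with a ratio of 1.44 in pair 3 against 0.454 and 0.442 in pairs 1 and 2. Oas1b and Oas3 had means of at most 0.301 in either genotype and were not tested.

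Among the 8 tested genes of ubiquitin-like modification, 1 passed, and all 8 were below 0, against 62.1% of all genes tested. Uba7, the enzyme that activates Isg15 for its attachment to proteins, read 4.41, 3.45 and 2.77 in KRAP-/- mice 1 to 3 and 7.75, 5.10 and 7.28 in their littermates. The groups did not overlap, with a log2 difference of −0.92 ± 0.18 (SE, adjusted p = 0.0465), and the call was lost without pair 1, without pair 3 and without the pair as a block. Usp18, which removes Isg15 from proteins and restrains the receptor, lay just outside the threshold with −0.65 (adjusted p = 0.0513). Herc6, the main ligase for Isg15 in the mouse, had −0.58 (adjusted p = 0.242) and a ratio above 1 in pair 1 alone. The ADP-ribosyltransferases Parp9 and Parp14 had −0.43 (adjusted p = 0.0777) and −0.59 (adjusted p = 0.0857), and Dtx3l, the ubiquitin ligase that pairs with Parp9, −0.23 (adjusted p = 0.357). Trim30a and Trim21, of the TRIM family of ubiquitin ligases, had −0.51 (adjusted p = 0.0955) and −0.18 (adjusted p = 0.598). The level of Isg15 itself was not analysed here.

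Of the 11 tested members of the other effectors, 7 were lower, and none of the 11 overlapped between genotypes. Over all genes tested, 1.31% were called lower and 15.2% did not overlap in the lower direction. Ifi27, a small membrane protein strongly induced by interferon, read 28.3, 20.9 and 21.1 in KRAP-/- mice 1 to 3 and 55.5, 41.5 and 39.8 in their littermates, a log2 difference of −0.96 ± 0.09 (SE, adjusted p = 0.00193), the lowest adjusted p of the members. Xaf1, a partner of the apoptosis inhibitor XIAP, read 6.58, 4.62 and 4.42 against 11.1, 9.02 and 8.47, a log2 difference of −0.88 ± 0.13 (SE, adjusted p = 0.0124). In both genes pair 1 was highest in each genotype, while the ratios within pairs lay between 0.504 and 0.595. Samd9l, an antiviral and growth-restraining protein, read 9.44, 8.85 and 7.94 against 18.95, 13.9 and 13.5, a log2 difference of −0.81 ± 0.12 (SE, adjusted p = 0.0130). Rsad2, or viperin, which makes a chain-terminating nucleotide, read 9.97, 9.48 and 9.46 against 16.2, 15.2 and 16.5, a log2 difference of −0.73 ± 0.11 (SE, adjusted p = 0.0130). Rsad2 varied little within each genotype, and a dimmer probe set of it also passed, with −0.67 (adjusted p = 0.0419).

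The other 3 lower effectors act at membranes. Rtp4, a chaperone of cell-surface receptors, had a log2 difference of −0.71 (adjusted p = 0.0153). Bst2, or tetherin, which holds budding virions on the cell, had −0.69 (adjusted p = 0.0102), with KRAP-/- values of 25.8, 26.0 and 26.0 and wild-type values of 45.4, 42.6 and 37.8. Ifitm3, which blocks the fusion of entering viruses, had the smallest called difference, −0.46 (adjusted p = 0.0219), and this call was lost without pair 2 and with values as deposited. Ifi35 lay at the threshold with −0.46 (adjusted p = 0.0505). A dimmer probe set of it passed with −0.64 (adjusted p = 0.0353), and another did not, with −0.42 (adjusted p = 0.199) and groups that overlapped. Lgals3bp, a secreted glycoprotein, had −0.34 (adjusted p = 0.138), and Cmpk2, a mitochondrial nucleotide kinase encoded beside Rsad2, −0.47 (adjusted p = 0.343). Mx1, a GTPase that is defective in most inbred laboratory strains, was dim at 0.598 and 0.861 on average and had −0.53 (adjusted p = 0.620). Mx2 was not tested.

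**Figure D3:**
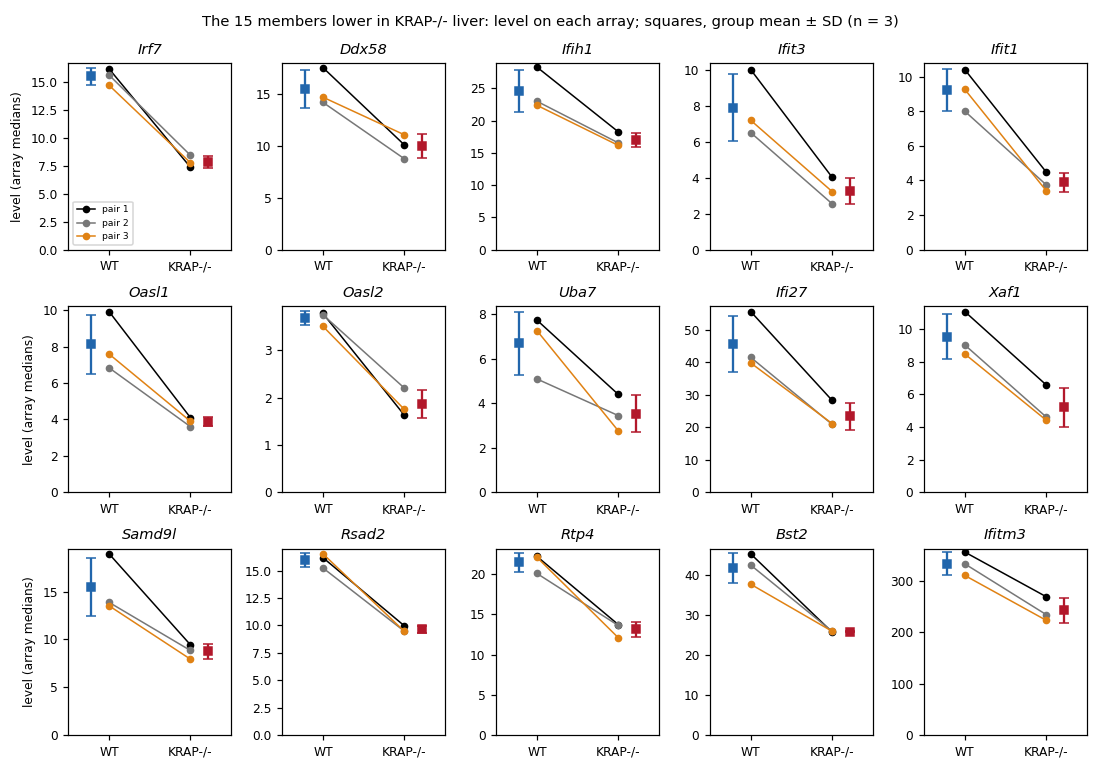
Level of the 15 members called lower (y axes, array medians, from 0) in wild-type (left) and KRAP-/- liver (right), with littermates joined by a line and the mean ± SD (n = 3) as a square beside each group. In every panel the 3 lines fall and the 2 groups do not overlap. Bst2 and Rsad2 show little spread among the KRAP-/- mice, with SDs of 0.125 and 0.287.

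**Figure D4:**
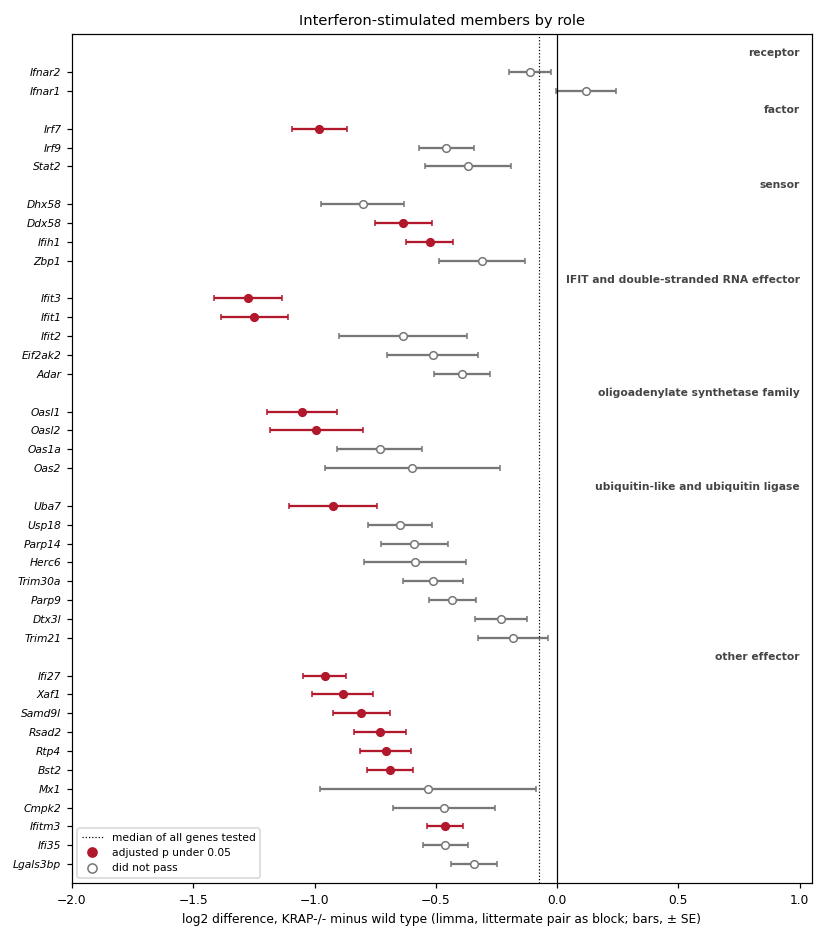
Log2 difference between KRAP-/- and wild-type liver (x axis) with its standard error for the 37 tested members, grouped by role (rows). Filled red points passed at an adjusted p under 0.05, open grey points did not, and the dotted line is the median of all genes tested, −0.08. All points but that of Ifnar1 lie left of 0, and the widest errors are those of the dim genes Mx1 and Oas2.

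Over all probe sets of the members, 67 were tested, of which 18 were lower and 0 higher, while 0.978% of all probe sets tested were called lower and 0.431% higher. Of the 30 dimmer probe sets 26 were below 0 and 3 were called lower, those of Rsad2, Ifi27 (−1.14, adjusted p = 0.00288) and Ifi35. Those above 0 were a probe set each of Ifnar1, Ifnar2, Eif2ak2 and Parp14. Probe sets of the same gene differed most in Dhx58, whose dimmer sets had −1.10 (adjusted p = 0.305) and −0.15 (adjusted p = 0.913).

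Outside the members, none of the tested genes listed for interferon production, signalling or its control passed. The members Ddx58, Ifih1 and Irf7, which also act in interferon production, were lower. Of 10 interferon genes with a probe set, 8 were too dim to test, Ifnb1 and Ifng among them, and the other 2, Ifna1 and Ifna2, did not pass with −0.26 (adjusted p = 0.692) and −1.02 (adjusted p = 0.394). Of the 7 genes tested that are receptor kinases, Stat3 or related receptors, 0 passed and the median was −0.01, with Jak1 at −0.01 and Tyk2 at −0.08. Of the 15 genes that lead to interferon induction 0 passed (median −0.12), and Irf5, an interferon regulatory factor of myeloid cells, had −0.90 (adjusted p = 0.0783). Of the 10 other interferon regulatory factors and inhibitors 0 passed (median −0.19), with Irf1 at −0.43 (adjusted p = 0.0844). A p above the threshold does not show that these genes were equal.

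Over all genes tested 1.31% were called lower. Among 41 further interferon-stimulated genes tested, 5 were lower and 0 higher, with a median of −0.27. These were Trim12a (−1.15, adjusted p = 0.0268) and Trim34a (−0.70, adjusted p = 0.0294), ubiquitin ligases of the TRIM family, Ly6e (−1.04, adjusted p = 0.00230), a surface protein that modulates viral entry, Parp12 (−0.62, adjusted p = 0.0282), an ADP-ribosyltransferase, and Rnf213 (−0.58, adjusted p = 0.0280), a giant ubiquitin ligase. The immunoproteasome and MHC class I loading genes had 3 of 15 lower, 0 higher and a median of −0.26, and the 3, named here after their values were seen, were the proteasome subunits Psmb8, Psmb9 and Psmb10. The GTPases and chemokines induced by interferon gamma had 8 of 12 lower, 0 higher and a median of −0.72. Differences between these lists and the members were not tested.

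The markers of Kupffer cells and macrophages differed between genotypes in the same direction as the members. All 11 tested were below 0 with a median of −0.43, 8 did not overlap between genotypes, and Clec4f, a lectin of Kupffer cells, was lower (−0.54, adjusted p = 0.0255). Over all genes tested, 62.1% were below 0 and 15.2% did not overlap in the lower direction. The summed level of the 11 markers was 236 to 243 in KRAP-/- and 276 to 332 in wild-type liver, and none of them was at 0. Their part in the difference of the interferon-stimulated genes was not tested. In bulk liver RNA, fewer cells of a type and less RNA per cell cannot be told apart. Summed markers of sinusoidal endothelium were 82.2 to 84.9 against 87.0 to 99.7 with 0 of 5 passing. Of 6 tested markers of stellate cells and fibroblasts 0 passed, 4 were below 0 and the median was −0.29. Among them Lrat, the retinol esterifying enzyme of stellate cells, and Col3a1, a fibrillar collagen, did not overlap between genotypes, with −0.66 (adjusted p = 0.0697) and −0.55 (adjusted p = 0.107), and Dcn, a matrix proteoglycan, had means of 126 and 110 in KRAP-/- and wild-type liver. The part of these markers in the result was not tested. Markers of plasmacytoid dendritic cells, the main producers of interferon alpha, had 0 of 3 passing, with Siglech near the limit set for the test. None passed either among 3 tested markers of B cells, 4 of T and NK cells, 4 of neutrophils, 4 of cholangiocytes and 2 of adipocytes, most of them dim.

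**Figure D5:**
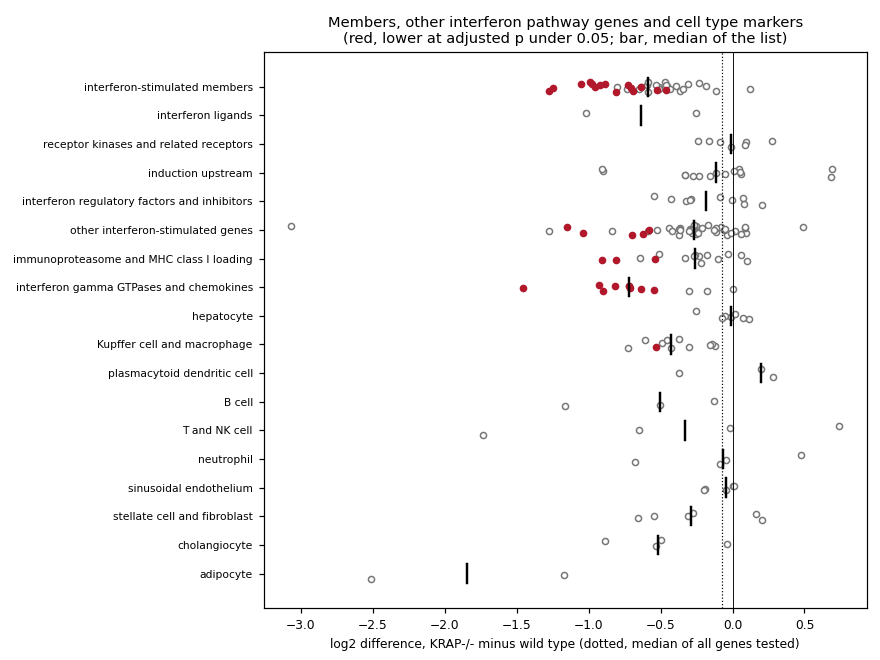
Log2 difference between KRAP-/- and wild-type liver (x axis) of each tested gene of the members, of other interferon pathway lists and of cell type markers (rows). Red points were lower at an adjusted p under 0.05, open points did not pass, black bars are list medians and the dotted line is the median of all genes tested. The members' median is −0.59, that of the Kupffer cell and macrophage markers −0.43 and that of the hepatocyte markers −0.01.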

How the data were processed

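The deposited values are linear signal intensities of Affymetrix Mouse Genome 430 2.0 arrays that the authors made with GCOS, neither log transformed nor scaled to a common median. After 64 control probe sets were left out and each array was scaled to a median of 1, values under 0.1 were set to 0.1 and converted to log2. Of the probe sets, 28531 had a mean of 0.5 or more and entered limma 3.58.1 in R 4.3.3, in a model with genotype and littermate pair, with moderation that follows intensity and p-values adjusted over all of them by Benjamini-Hochberg. The pairing rests on the design text and methods of the study, by which mice of the same number were littermates, and not on the data, where the correlations of deviations from the genotype means were 0.043, 0.0095 and −0.012. The brightest probe set over the 6 arrays stands for a gene. This model was run on simulated data with independent normal noise and no effect of pair. Such data follow the model's own assumptions, so the run cannot show that the model suits these arrays. In each role up to 4 called members with the largest change, or otherwise 2, were given with every array. The members and lists were chosen with earlier results of these data known. Promoters were taken from RefSeq. Python 3.11.15 and pandas 2.3.3 made the tables. The number of arrays limits the precision. Alternatives were other scalings, floors, limits on dim probe sets and summaries of probe sets, no block, no trend and leaving out each pair.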

Additional observations from a re-analysis of the deposited data

How the results depend on the processing

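The direction of the members did not depend on the settings tried: the median log2 difference stayed between −0.60 and −0.53 in all of them and 0 members were called higher by limma in any. The count of members called lower was 15, and 11 to 17 in the other settings, with 13 without the pair as a replicate block, except that it was 0 with no limit on dim probe sets and 0 with no intensity trend. Those 2 settings also gave 0 of the further interferon-stimulated genes, 0 probe sets lower and 0 higher in the whole table, and the cause was not tested. The further interferon-stimulated genes called lower were 5, and 2 with values as deposited, 3 with quantile normalization and 2 to 5 with each pair left out, 2 of them without pair 1. With each pair left out, 13 to 15 members, 267 to 522 probe sets lower and 110 to 338 probe sets higher were called, the most of the probe sets without pair 3. A 2-fold limit in all 3 pairs was met by 2 members, and the 1.5-fold limit in the 2 remaining pairs by 14 to 18. Outside the 2 settings with no calls, Irf7, Ifit1, Ifit3, Oasl1, Rsad2, Bst2, Samd9l and Ifi27 passed in all 12, Rtp4 and Xaf1 in 11, Ifitm3 in 10, Oasl2 in 9, Ifih1 in 8 and Ddx58 and Uba7 in 7. Members near the array median, such as Mx1 and Oas2, are measured with the widest errors.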
